A study of Mus musculus with 60 samples.

Results

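The circular RNAs (circRNAs) described here were listed in the brain of the mouse and in 1 or 2 of the heart, kidney, liver and spleen. They were chosen by name: the chromosome, start and end of the back-splice junction had to stand in the authors' deposited brain table and in exactly 1 or 2 of the other 4 tables. There were 466 of them, among 1856 circRNAs in the brain table and 2799 different circRNAs over all 5 organs. They lie between 1101 circRNAs listed in brain alone and 289 listed in brain and in 3 or 4 other organs. The choice rests on which tables list a junction, so what follows about numbers and abundance by organ is a description without a test.

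The study compared Ftsj1-deficient mice (labelled Ftsj1_DF) with wild-type mice (WT). Ftsj1 encodes a methyltransferase that adds a methyl group to the ribose of certain tRNA nucleotides, and the labels do not say how the gene was inactivated. Each genotype had 3 mice, all of them males aged 4 months, and the organs were taken whole. RNA was freed of ribosomal RNA, polyadenylated and treated with RNase R, which degrades RNA with free ends, and each of the 30 libraries was sequenced in 2 batches. The labels give 4 of the mice as brothers and the other 2 as brothers too.

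A circRNA forms when the splicing machinery joins the end of an exon back to the start of the same or an earlier exon of the same transcript. The closed ring has no free ends and is therefore more stable than most linear RNA. One gene can give several rings that share a start or an end, and circRNAs are known to be abundant in brain tissue. The tables pair no junction with a gene, and the annotation at hand belongs to another genome build, so no host gene, exon or sequence is given, and the tissue labels could not be checked against marker genes. Positions are on GRCm39 as the tables write them. Genomic span means the distance between the 2 ends, introns included, which is not the length of the ring.

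Kidney was the most frequent partner of the brain. Of the 466 circRNAs, 261 (56.0%) were listed in kidney, 180 (38.6%) in liver, 143 (30.7%) in heart and 42 (9.01%) in spleen. A single partner organ was the case for 306, made up of 139 with kidney, 77 with liver, 69 with heart and 21 with spleen. The remaining 160 had 2 partner organs, led by kidney with liver (70), heart with kidney (43) and heart with liver (26). The pairs with spleen were rare, with 9 for kidney, 7 for liver and 5 for heart. The bar chart by partner organ shows this order.

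**Figure D1:**
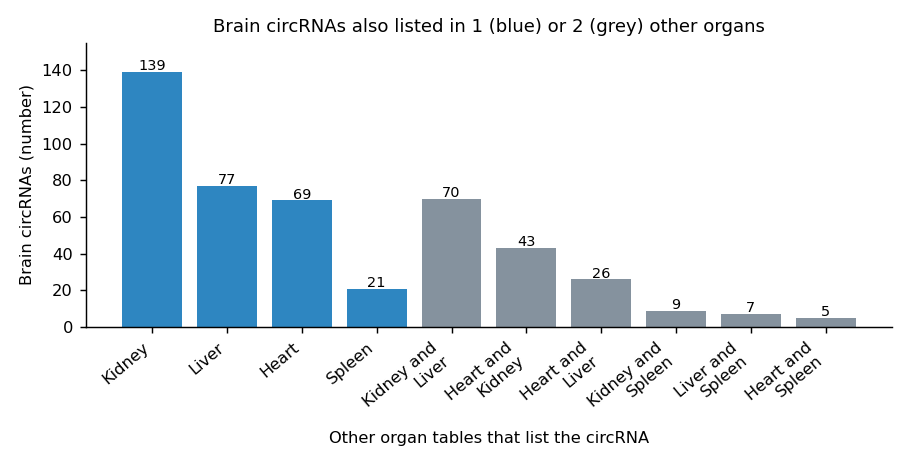
Number of brain circRNAs (vertical axis) by the other organ tables that list them (horizontal axis), with 1 partner organ in blue and 2 in grey. The class with kidney alone holds 139 circRNAs, and the 3 pairs that include spleen hold 9, 7 and 5.

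The tables differ in length. Kidney listed 996 circRNAs, liver 900, heart 664 and spleen 308, each after the authors' own removal of low expression. As a share of the partner's table, the circRNAs described here made up 26.2% in kidney, 21.5% in heart, 20.0% in liver and 13.6% in spleen. The share of a table that was also in the brain table was 73.1% in spleen (225 circRNAs), 62.7% in heart, 54.4% in kidney and 49.2% in liver. The shorter tables, spleen and heart, thus had the higher shares. In spleen only 18.7% of these 225 were shared with at most 1 further organ. In kidney 48.2% of the 542 circRNAs shared with brain were of this kind. In liver it was 40.6% of 443, and in heart 34.4% of 416. A circRNA missing from a table may still have been present in that organ below the limit for low expression.

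In brain these circRNAs were of intermediate abundance. By the authors' deposited brain table their median level, as a mean normalized count over both genotypes, was 4.77 (quartiles 2.77 and 8.81), against 2.84 for circRNAs listed in brain alone and 12.2 for those listed in 3 or 4 other organs. The step from 1 to 2 partner organs was small, 4.47 against 5.15. At the edges of the rule, the circRNAs with 2 partners had that median of 5.15 and those with 3 had 7.42. The 466 held 21.6% of the summed mean normalized count of the brain table while making up 25.1% of its entries. No other measure per library was at hand, so a difference between mice cannot be shown.

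The most abundant in brain was chr9:96474003-96493552, shared with kidney and spleen. Its mean normalized count in the authors' deposited tables was 60.0 in brain, 42.1 in kidney and 2.29 in spleen, which put it at percentile 99.0, 98.5 and 35.7 of the abundance ranks of these tables. It was thus near the top in brain and kidney and in the lower part of the spleen table. Next in brain stood chr12:3287285-3288112, shared with liver, with means of 39.6 in brain and 6.88 in liver in the authors' deposited tables, percentile 97.6 against 37.7. The circRNA chr12:3667606-3698389, shared with kidney and liver, had means of 38.6 in brain, 36.2 in kidney and 13.7 in liver in the authors' deposited tables, percentiles 97.5, 97.99 and 65.3. Each table was tested on its own, and whether its counts share a scale with those of another organ is not stated. Counts of 2 organs given together are therefore each organ's own level, and the percentiles are what is compared.

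For the single partners, the leading brain circRNAs were as follows. With kidney alone, chr17:69514854-69517378 led at 33.1 in brain and 1.40 in kidney, by the authors' deposited tables, percentile 96.9 against 14.1. With spleen alone, chr2:32094021-32094336, a short span of 316 bases, had 31.8 in brain and 3.75 in spleen in the authors' deposited tables, percentile 96.4 against 55.5. With heart alone, chr8:78111380-78137757 had 29.7 in brain and 22.7 in heart in the authors' deposited tables, percentile 96.0 against 95.5. This last one ends at the same base as chr8:78109354-78137757, which all 5 organs listed and which had a mean of only 4.57 in the authors' deposited brain table. Another heart partner, chr13:11695852-11702899, was the highest of all these circRNAs in heart, with 22.5 in brain and 73.7 in heart in the authors' deposited tables, percentile 92.8 against 99.5.

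How far abundance in brain went with abundance in the partner organ differed by organ. Across the shared circRNAs Spearman's rho of the mean normalized counts was 0.60 for spleen (n = 42), 0.40 for heart (n = 143), 0.37 for kidney (n = 261) and -0.02 for liver (n = 180). CircRNAs of 1 table share its libraries and are not independent, and membership sets a floor on both axes, so no p is given. The middle rank of these circRNAs was higher in brain than in the partner in every organ. Such ranks depend on what else a table lists. In brain 1101 of the 1856 entries were listed in brain alone, with a median percentile of 37.2. Of the spleen circRNAs shared with brain, the rule kept 18.7%. The rule and the make-up of the tables thus bear on the difference in rank, which was not tested. The median percentile was 69.1 in brain and 29.7 in spleen for those shared with spleen, and 66.2 in brain and 42.9 in heart for those shared with heart. It was 59.8 in brain and 47.1 in kidney, and 52.5 in brain and 43.6 in liver. No circRNA shared with spleen ranked higher in spleen than in brain. For kidney 91 of 261 did, for liver 71 of 180 and for heart 33 of 143.

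**Figure D2:**
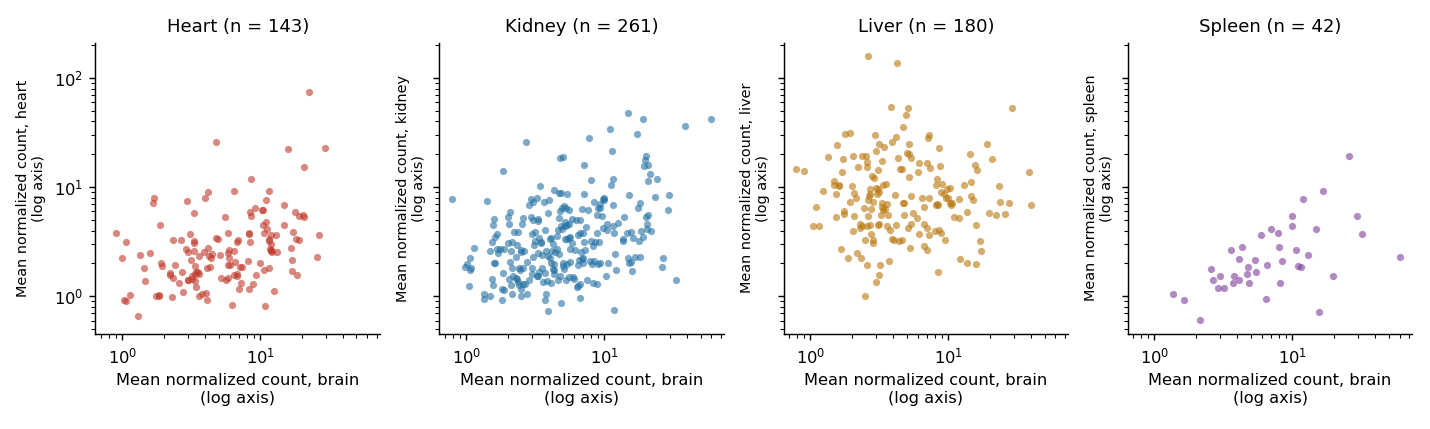
Mean normalized count of each circRNA in brain (horizontal log axis) and in the partner organ (vertical log axis), 1 panel per partner and 1 point per circRNA, both genotypes together. The spleen points follow the brain values most closely (rho 0.60, n = 42), and the liver points do not (rho -0.02, n = 180).

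The circRNAs at the ends of this range show how different the ranks could be. Among those shared with liver alone, chr5:124714861-124715215 had means of 1.78 in brain and 30.6 in liver in the authors' deposited tables, percentile 18.7 against 85.9. In the other direction, chr2:33214665-33230845 had 17.4 in brain and 2.57 in liver in the authors' deposited tables, percentile 89.9 against 5.78. A liver partner chosen after its values were seen, chr10:128043167-128044536, had 4.23 in brain and 137.1 in liver in the authors' deposited tables, percentile 53.8 against 97.8. For kidney alone, chr3:133026697-133036273 stood at percentile 11.4 in brain and 77.2 in kidney, and chr14:27802089-27863338 at 83.4 in brain and 0.60 in kidney. Among those shared with heart alone, chr4:44018813-44025560 had 10.9 in brain and 0.81 in heart in the authors' deposited tables, percentile 81.6 against 1.66. With spleen alone the widest gap was that of chr9:70466319-70470143, percentile 88.4 in brain and 2.27 in spleen.

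The genomic span, which the rule did not use, had a median of 6376 bases (quartiles 1832 and 17085). That was close to the 6593 bases of circRNAs listed in brain alone, and those listed in 3 or 4 other organs had a median of 3862 bases. By partner organ the median was 7303 bases for kidney, 7048 for heart, 5028 for liver and 4622 for spleen. Kidney as the only partner gave a median of 8144 bases, and 9.35% of these 139 spanned less than 1 kb, compared with 79 of all 466. The shortest was chr13:42208876-42209018 with 143 bases, shared with liver and spleen, and the next chr6:134043270-134043428 with 159 bases, shared with kidney and liver. The longest was chr13:45948985-46110048 with 161064 bases, shared with kidney. It was followed by chr8:73940753-74066914 with 126162 bases, shared with liver. In the share of spans over 50 kb the 466 stood at 5.36%, against 7.63% for brain alone and 2.08% for 3 or 4 other organs. These differences over circRNAs were not tested.

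The 466 circRNAs came from 406 of the 1451 loci of overlapping brain circRNAs. Most, 290 or 62.2%, were the only brain circRNA of their locus, against 66.3% of those listed in brain alone. A start or an end was shared with another brain circRNA in 167 cases (35.8%), against 31.6% in brain alone and 36.3% for 3 or 4 other organs. For 64 of them the locus also held a circRNA listed in 3 or 4 other organs. In 57 of these 64 cases the most abundant widely listed circRNA was above the narrowly listed one in brain, with a median ratio of 3.45 over all 64. In 40 cases the narrowly listed circRNA spanned more of the genome than the most abundant widely listed one. For 94 the locus held a circRNA listed in brain alone, and 66 of these were more abundant than every such circRNA there. Listing goes with abundance, so these counts are a description without a test. The start of the most abundant brain circRNA, chr1:87291826-87307730, gives an example. It was shared with chr1:87291826-87301833, listed in heart and liver, and with chr1:87291826-87293001, listed in kidney. Their means in the authors' deposited brain table were 2.74 and 1.87, while the widely listed circRNA had 364.5.

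CircRNAs of 1 locus often had the same partner organ. There were 47 loci with at least 2 of the circRNAs described here, 107 in all. In 22 loci all of them had the same partner organs, and in 42 loci they had at least 1 partner organ in common. Kidney is listed for 56.0% of all 466, and no comparison with chance was made. The largest numbers, 5 each, were found in a locus on chromosome 2 and in one on chromosome 4, both with 12 brain circRNAs.

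The chromosome 4 locus reached from 150490653 to 150619402. All 5 of its circRNAs described here were listed in kidney and in no further organ. The most abundant was chr4:150523800-150561925, with means of 9.09 in brain and 6.42 in kidney, by the authors' deposited tables. A ring from the same start to 150584508 had 2.75 in brain and 2.06 in kidney, and chr4:150584460-150619402 had 7.28 in brain and 2.64 in kidney, in the authors' deposited tables. The remaining pair started at 150553152 and had brain means of 3.16 and 3.03 in the authors' deposited table. A small set of starts and ends thus recurred in several combinations. Its most abundant ring, chr4:150584460-150594495, was listed in heart, kidney and liver, with 19.9 in the authors' deposited brain table.

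In the chromosome 2 locus, from 139725692 to 139899419, 4 of the 5 shared a single end at 139899419. The one from 139819527 was listed in kidney and liver, with means of 23.4 in brain, 8.08 in kidney and 10.3 in liver in the authors' deposited tables. Those from 139827049 and 139837993 were listed in kidney, with brain means of 2.86 and 16.7 in the authors' deposited table. The one from 139872521 was listed in liver, with 5.24 in brain and 2.79 in liver in the authors' deposited tables. The shortest ring with this end, chr2:139884014-139899419, was in all 5 tables and was the most abundant of the locus, at 47.9 in the authors' deposited brain table.

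**Figure D3:**
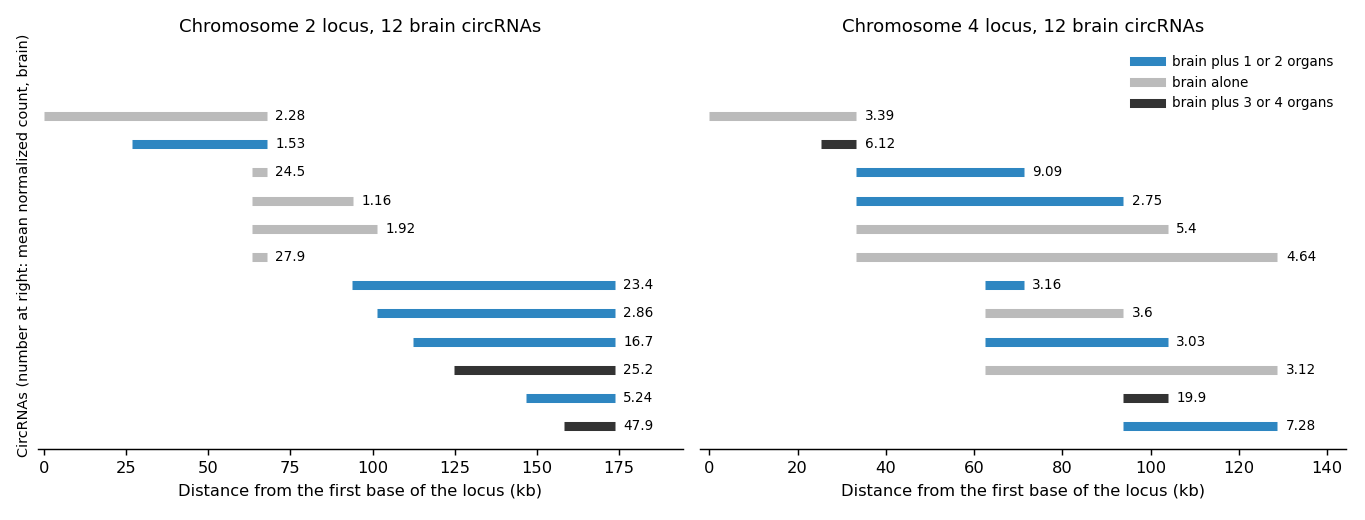
The pair of loci with 5 shared circRNAs each, with every brain circRNA drawn as a bar from its start to its end (distance from the first base of the locus in kb) and its mean normalized count in brain at the right. Blue bars, listed in 1 or 2 other organs, share their starts or ends with grey bars (brain alone) and black bars (3 or 4 other organs), and the most abundant bar on chromosome 4 is black, at 19.9.

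Some junctions differed by 3 bases only. For 10 of the 466 circRNAs the brain table held a second junction within 5 bases at each end, and in every case 1 end was the same and the other was shifted by 3 bases. The longest circRNA, chr13:45948985-46110048, had a mean of 7.52 in the authors' deposited brain table, and its neighbour ending 3 bases later had 125.4 and stood in all 5 tables. Likewise chr10:13879942-13942428, shared with heart, had 25.8 in the authors' deposited brain table, and its neighbour starting 3 bases later had 140.2 and was in all 5 tables. With spleen as the only partner there was a pair on chromosome 12, starting at 107955724 and ending at 107956089 and 107956086, with brain means of 14.9 and 3.20 in the authors' deposited table. Allowing 5 bases at each end gave 467 shared circRNAs in place of 466, which is a net number. With that tolerance chr13:45948985-46110048 and chr10:13879942-13942428 matched a junction in every other organ. They thus left the set, while others entered it.

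Every autosome contributed, from 17.7% of the brain circRNAs of chromosome 11 to 34.4% of those of chromosome 16. Chromosome X, which carries Ftsj1, gave 5 of its 24. In the authors' deposited brain table the log2 fold changes of these 5 lay between 0.04 and 2.38, with SEs from 1.33 to 2.16, and none had an unadjusted p below 0.05. The only chromosome Y circRNA of the brain table was among the 466. Kidney listed it too, and the authors' deposited brain table gave it -0.10 (SE 2.06) on the log2 scale.

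Between the genotypes no shared circRNA passed the threshold in brain, which was an adjusted p below 0.05 by the authors' DESeq2 test, and neither did any other brain circRNA (0%). The tables do not say which genotype is the numerator, so signs are given as deposited, without a direction for Ftsj1-deficient mice. An unadjusted p below 0.05 was found for 12 of the 465 with a p-value (2.58%), of which 6 were positive and 6 negative, against 2.05% of the whole brain table. Over the whole table the positive ones were 0.648% and the negative ones 1.4%. The smallest adjusted p was 1.00 (0.999908 before rounding). The median SE was 1.73 on the log2 scale, so that a typical 95% interval reached 3.40 to each side, and none of these intervals stayed inside a 2-fold change in both directions.

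On the negative side chr4:9583812-9610938, shared with heart, had, by the authors' deposited tables, -6.00 (SE 1.99) on the log2 scale in brain at a mean of 7.14, and 1.30 (SE 1.90) in heart. It was followed by chr2:68189158-68240485, shared with kidney, with -5.39 (SE 1.95) in brain and 0.52 (SE 3.52) in kidney, by the authors' deposited tables. A second circRNA with the same end, chr2:68221258-68240485, had a brain mean of 17.4, against 4.67 for the first, with -2.81 (SE 1.40) there, 0.27 (SE 1.17) in heart and 0.45 (SE 1.10) in kidney, by the authors' deposited tables. The other shared circRNAs of that locus were chr2:68137385-68144947 and chr2:68137385-68189378, which had -0.23 (SE 1.45) and -0.01 (SE 1.64) in the authors' deposited brain table. On the positive side chr19:45963406-45963714, shared with kidney, had 5.32 (SE 1.97) in brain and 0.45 (SE 2.08) in kidney, by the authors' deposited tables. Next came chr1:177037542-177076447, shared with spleen, for which the authors' deposited tables gave 5.40 (SE 2.12) in brain and -0.47 (SE 1.90) in spleen. Both of these and both of the leading negative ones lay on a plateau where the absolute log2 fold change exceeds log2 of the mean by more than 2.5. There the absolute fold changes lie along a line that climbs with the mean, and their size is not read as the strength of a difference.

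The share of positive signs in brain differed by partner organ. Among the 12 at an unadjusted p below 0.05, all 5 spleen-listed circRNAs were positive. This was not particular to the 466. Among all brain circRNAs at this p, 9 of 12 positive ones and 0 of 26 negative ones were listed in spleen. The 6 negative ones of the 466 were all listed in heart or kidney, as were 361 of the 466 (77.5%). Among all brain circRNAs, 6 of the 26 negative ones were so listed, as were 650 of 1856 (35.0%). Of the 466, 42 were listed in spleen. The authors' deposited brain table gave positive log2 values for 32 of these 42 (76.2%), with a median of 0.92. Of the 424 not listed in spleen, 184 were positive (43.4%), with a median of -0.16. The spleen figure was not particular to circRNAs with 1 or 2 partner organs, since 161 of all 225 brain circRNAs listed in spleen were positive (71.6%, median 0.70). The brain table as a whole had 45% positive and a median of -0.14. The circRNAs listed in liver had a brain median of 0.07 (98 of 180 positive). Those listed in heart had -0.23 (53 of 143 positive), and those listed in kidney -0.31 (106 of 261 positive). Over the whole table the values differed from these. Of all brain circRNAs listed in liver 274 of 443 were positive (61.9%, median 0.28). For heart it was 231 of 416 (55.5%, median 0.14), and for kidney 289 of 542 (53.3%, median 0.08). Among the pairs with spleen, all 9 circRNAs listed with kidney were positive in brain, 4 of 7 with liver and 3 of 5 with heart. Of the other pairs, 11 of 43 were positive for heart with kidney, 32 of 70 for kidney with liver and 14 of 26 for heart with liver. These shares were not tested.

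Abundance differs with listing, and the spleen comparison is also described within 4 bins of equal number of the brain table by mean normalized count. The bins do not hold abundance fixed, since the highest ran from 8.06 to 364.5. Whether abundance bears on the signs was not tested. In the highest bin 12 of 17 spleen-listed circRNAs were positive in brain (median 0.70), against 37 of 119 not listed in spleen (median -0.46). In the next bin it was 13 of 14 (median 2.07) against 57 of 125 (median -0.08), and below that 6 of 9 against 61 of 114. The lowest bin held only 2 spleen-listed circRNAs. Over all brain circRNAs listed in spleen, 68.4% were positive in the highest bin and 87.5% in the next. Those listed in brain alone had a brain median of -0.36, those with 3 other organs 0.21 and those with all 4 others 0.64. All these estimates come from the same 3 Ftsj1-deficient and 3 wild-type brains. The median SE was 1.73 for the 466, 1.99 for brain alone, 1.63 with 3 other organs and 1.39 with all 4 others. Whether this shift exceeds the variation among mice was not tested.

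In their partner organs the same circRNAs had other medians. For those listed in spleen the median log2 fold change was 0.92 in brain and -0.88 in spleen, where 12 of 42 were positive. The whole spleen table had a median of -0.55. For kidney it was -0.31 in brain and 0.27 in kidney, where 161 of 261 were positive and the whole table had 0.20. Heart gave -0.23 in brain and 0.16 in heart, beside 0.12 for the whole heart table, and liver 0.07 in brain and -0.30 in liver, beside -0.22. In each partner organ the median thus had the sign of that organ's whole table.

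**Figure D4:**
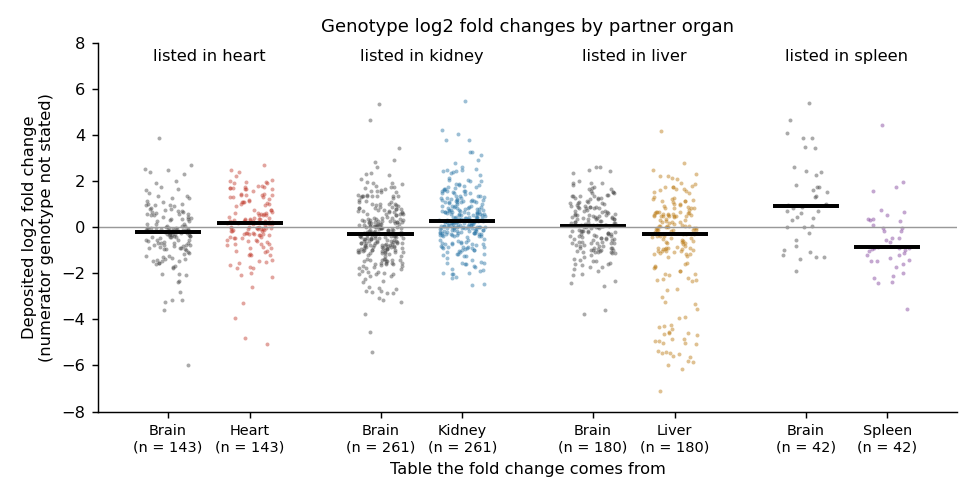
Deposited log2 fold changes between the genotypes (vertical axis, numerator not stated) of the circRNAs listed in each partner organ, from the brain table and from the partner's table. Points are circRNAs and black lines medians, which are 0.92 in brain and -0.88 in spleen for the 42 circRNAs listed in spleen.

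In the partner organs a single circRNA passed the threshold. In the authors' deposited liver table, chr17:79957731-79989111 stood at -7.11 (SE 1.69) on the log2 scale, with an adjusted p = 0.0154 by their DESeq2 test and a mean of 17.03. It was 0.113% of the 883 liver circRNAs with a p-value, of which only 587 had an adjusted p. In heart, kidney and spleen 0% passed, and there every circRNA with a p-value had an adjusted p. It lay on the liver plateau. The authors' deposited brain table gave it a mean of 2.58 and -0.77 (SE 1.95) on the log2 scale. In brain it shared its start with chr17:79957731-79966902, listed in heart, kidney and liver, for which the authors' deposited brain table gave -1.16 (SE 1.42) and a mean of 6.20.

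At an unadjusted p below 0.05 liver gave 17 of 176 (9.66%), against 9.06% of the whole liver table, and only 109 of the 180 had an adjusted p. Of these, 16 were negative (8.61% in the whole table) and all 16 lay on the plateau. The plateau held 32 of the 180 liver-listed circRNAs (17.8%), all negative, compared with 15% of the liver table. None of these 32 was on the plateau in brain. After the called one came chr6:134518615-134519008, shared with kidney and liver, with -0.79 (SE 1.5) in brain, -6.14 (SE 2.01) in liver and 1.76 (SE 1.47) in kidney, by the authors' deposited tables. The one positive liver circRNA was chr15:79425235-79426787, for which the authors' deposited tables gave 0.87 (SE 1.77) in brain and, at a liver mean of 28.7, 1.88 (SE 0.85) in liver.

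**Figure D5:**
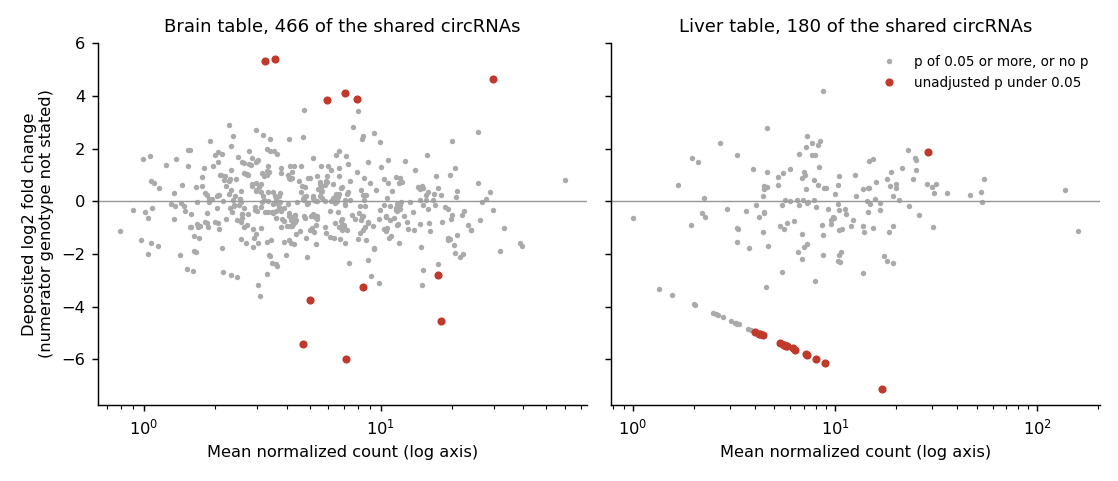
Deposited log2 fold change (vertical axis) against mean normalized count (horizontal log axis) of the shared circRNAs in the brain table (466) and the liver table (180), with those at an unadjusted p below 0.05 in red. In liver 16 of the 17 red points lie on a sloping line of negative values, and in brain 6 red points are positive and 6 negative.

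Heart had 5 of 143 shared circRNAs at an unadjusted p below 0.05 (3.5%, against 2.86% of the heart table), 1 positive (1.81% of the table) and 4 negative (1.05%). The smallest p was that of chr2:5057799-5059527, shared with heart and liver, which had -0.32 (SE 2.37) in brain, -5.05 (SE 1.63) in heart on the plateau, and -1.17 (SE 1.77) in liver in the authors' deposited tables. The positive one was chr2:181273228-181273880, with -2.03 (SE 1.90) in brain, 1.78 (SE 0.75) in heart and -0.60 (SE 1.29) in kidney, by the authors' deposited tables. Heart gave the closest estimates by median SE, at 1.63 in heart against 1.68 in brain for the same 143 circRNAs. In heart 2 of the shared circRNAs, and in the other 4 organs none, had a 95% interval that stayed inside a 2-fold change in both directions. These were chr13:11695852-11702899, with -0.36 (SE 1.73) in brain and -0.05 (SE 0.30) in heart in the authors' deposited tables, and chr8:78111380-78137757, with -0.34 (SE 1.47) in brain and 0.01 (SE 0.46) in heart. In 98 of 143 cases the SE was smaller in heart than in brain. The SE was smaller in kidney than in brain in 144 of 261 cases, in liver in 57 of 180 and in spleen in 9 of 42.

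Kidney had 3 of 260 (1.15%, against 1.82% of the kidney table), all positive, where the table itself had 0% negative, and spleen 1 of 41 (2.44%, against 2.05%, made up of 1.37% positive and 0.685% negative). An unadjusted p below 0.05 in brain and in the partner organ was found for 3 of the 618 pairs of brain with a partner, against 3 of all 1591 such pairs (0.189%), and these 3 pairs belong to 2 circRNAs. For chr11:70765572-70775794 the mean normalized counts in the authors' deposited tables were 29.7 in brain, 8.45 in kidney and 5.41 in spleen, and its unadjusted p was below 0.05 with a positive sign in each of these 3 organs. The other, chr7:97893156-97915454, had -3.24 (SE 1.57) in brain, -3.30 (SE 1.58) in heart and -0.13 (SE 1.97) in kidney, by the authors' deposited tables. Neither passed an adjusted p of 0.05 in any table.

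Whether the fold change differed between brain and the partner organ was tested for each shared circRNA from the deposited estimates and SEs, with Benjamini-Hochberg adjustment over all 1591 pairs of brain with another organ. None of the 618 pairs of the circRNAs described here passed, and the smallest adjusted p of this normal test was 0.999. An unadjusted p below 0.05 was reached by 20 (3.24%), against 3.02% of all pairs. Brain minus liver was positive in all 9 such pairs (5.14%, against 5.99% of all liver pairs in either direction), each with an estimate on the plateau. Brain minus kidney was negative in all 7 (2.69%, against 2.05% of all kidney pairs in either direction). In the genotype test at this p, the whole liver table had 8.61% negative and 0.453% positive. The whole kidney table had 0% negative and 1.82% positive. Heart gave 3 (2.11%, against 1.21% of all heart pairs) and spleen 1 (2.44%, against 2.9%). The smallest p was that of chr16:94204173-94212982, with -4.53 (SE 1.67) in brain and 2.46 (SE 1.86) in kidney, by the authors' deposited tables, a difference of -6.99 (SE 2.5). It was abundant in brain, with a mean of 18.0, and neither estimate lay on the plateau. Its neighbour chr16:94184771-94204227, also shared with kidney alone, had -1.10 (SE 2.07) in brain and 1.57 (SE 3.76) in kidney, by the authors' deposited tables. The test takes the organs as independent, although the same mice gave them.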

How the data were processed

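The authors' comparison of the genotypes was used as deposited, in 5 tables for 5 organs. Counts of single libraries were not used here, depth is therefore unknown, and the deposited SE is the only error. BWA 0.7.17-r1188, the build GRCm39 and DESeq2 are named, with no roles, by the submitters' processing notes. Not given in the sources used here are the circRNA caller, the counting, the model, the treatment of the 2 batches and the limit for low expression. The tables, per the file headers, hold a mean normalized count (an abundance signal), a log2 fold change, its standard error, the Wald score and the p-values. The deposited score equalled the fold change over its SE, and the deposited p-value its normal tail, in every entry that had one.

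CircRNAs were matched by exact name. The members and all lists were chosen with earlier results of these data known. Medians, ranks and counts were computed with pandas 2.3.3 and numpy 2.4.6. Differences between organs were tested with a two-sided normal test (scipy 1.17.1) from the deposited estimates, which was checked on simulated data. The simulated differences were larger than any found for the circRNAs described here, and their errors were independent. The check therefore does not cover smaller differences or organs taken from the same mice. CircRNAs were named by rule: abundance in each partner class, smallest p in each direction (at most 2 printed, since the tables hold no gene names), span, loci, rank shifts and p in several organs; others are shown as neighbours of these. Loci are chains of overlapping brain circRNAs. The plateau limit of 2.5 was set after the values were seen. The host gene lists planned were not used, for want of an annotation of the build. Alternatives were 5 bases of tolerance, a mean of at least 5, 1 circRNA per locus and leaving out the plateau.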

Additional observations from a re-analysis of the deposited data

How the results depend on the processing

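A mean normalized count of at least 5 in brain left 225 of the 466 circRNAs, with 77 heart-listed, 129 kidney-listed, 77 liver-listed and 25 spleen-listed ones, a median span of 7502 bases and a median brain log2 fold change of -0.17. With 1 circRNA per locus, the most abundant, the median brain mean was 4.90, the median span 5486 bases, and 7 circRNAs had an unadjusted p below 0.05 in brain instead of 12. With a mean of at least 5 in the partner organ, 1 circRNA with an unadjusted p below 0.05 was left in heart and 1 in kidney. Without the plateau there were 2 in heart, 1 in kidney and 1 in liver, and 6 pairs for the difference between brain and a partner organ. Under an alternative added after the data were seen, the share of spleen-listed circRNAs positive in brain was 80.0% with a mean of at least 5, 75.6% without the plateau and 74.4% with 1 per locus, and that of kidney-listed ones was 40.5% to 41.1%. No paired analysis was possible because the tables hold no values per mouse, and for the same reason no mouse could be left out.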
